A study of Mus musculus with 8 samples.

Results

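The 10 genes described here are immediate early and activation genes: the surface activation marker Cd69, the zinc finger factors Egr1, Egr2 and Egr3, the orphan nuclear receptors Nr4a1 and Nr4a2, the AP-1 subunits Fos and Junb, and the Krüppel-like factors Klf2 and Klf4. They were taken by gene name from the array design with every probe of each, which gave 10 of 34797 gene names and 11 of 55681 probes. They were measured in A20, a mouse B lymphoma cell line, with 2 arrays for each of 4 lines and 8 arrays in all. The lines were a stable transfectant for IgE named clone 18, a stable IgE transfectant named clone 41, a stable transfectant for membrane IgM, and untransfected A20 cells. All 4 lines grew in RPMI1640 medium with 10% serum and 50 µM beta-mercaptoethanol, and the labels name no stimulus and no sorting. Each IgE line is 1 clone, so a difference between an IgE line and a control can belong to the clone as well as to IgE, and the labels do not say how the IgM line was selected. The IgM and untransfected lines are the controls named in the series design.

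Immediate early genes are transcribed within minutes of a signal from transcription factors that are already present, and many of their messenger RNAs are short-lived. In B cells, ligation of the antigen receptor raises Egr, Nr4a, Fos and Jun family genes through calcium and MAP kinase signalling, and brings CD69 to the surface. Klf2 and Klf4 work in the other direction: they are high in resting lymphocytes, fall on activation, and Klf4 restrains B cell proliferation.

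A value below is the log2 of a probe's background-subtracted intensity minus the log2 of the 75th percentile of its array, called the log2 signal. A log2 signal of one probe cannot be set against that of another, so levels are compared between lines for each probe alone. Probes were tested with limma where the 2 arrays of some line were both well above background, which left 29140, and "called" below means an adjusted p under 0.05 together with a change of at least 2-fold. Whether the paired arrays of a line are separate cultures is not stated in the labels, and the p-values cover only the spread between them, which may be technical. The comparisons below share lines: the same control arrays stand in several of them.

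The 75th percentile was 472 to 522 intensity units on the 4 IgE arrays and 584 to 663 on the 4 control arrays, and 49.7% to 58.9% of spots were well above background. The 2 untransfected arrays differed from each other more than those of any other line: the SD of their difference over all tested probes was 0.74, against 0.43 to 0.51 in the other lines. All 7 B cell markers examined (Cd79a, Cd79b, Ms4a1, Cd22, Pax5, Ptprc, H2-Aa) were well above background on all 8 arrays. Their summed signal was 179 to 216 times the array's 75th percentile on IgE arrays and 154 to 261 times on control arrays. Of 6 T cell markers, 3 were well above background on all 8 arrays and Cd8a on none, with a summed signal of 3.87 to 5.36 on IgE arrays and 3.73 to 4.54 on control arrays. Of 6 myeloid markers, 4 were above background on all 8 arrays and Lyz2 and Cd14 on none, with sums of 39.0 to 57.4 on IgE arrays and 41.7 to 55.6 on control arrays. Of 4 plasma cell markers, 3 were above background on all 8 arrays, with sums of 40.8 to 63.5 on IgE arrays and 67.4 to 87.2 on control arrays. Each sum gives most weight to its brightest probe and can hide a change in a dimmer marker. The brightest were Cd79b for B cell, Cd4 for T cell, Itgam for myeloid and Xbp1 for plasma cell markers. The Cd79b probe was saturated on 3 arrays. Between IgE and control lines, none of the 7 tested B cell markers was called, although Cd79a passed the test under 2-fold (-0.84 ± 0.14 on the log2 scale, adjusted p = 0.00962). Of 4 tested markers each, 1 was called lower and none higher among T cell genes (Cd3g, well above background on the IgM arrays alone), myeloid genes (Emr1, -4.41 ± 0.37) and plasma cell genes (Irf4, also an activation factor, -2.79 ± 0.30). Over all genes, each by its brightest probe, 3.41% were called higher and 5.55% lower. Of the markers not called, the myeloid gene Mpo had a difference of 1.20 (adjusted p = 0.0662) and the plasma cell gene Sdc1 of -0.94 (adjusted p = 0.0575). In total RNA, fewer cells carrying a transcript and less of it in each cell cannot be told apart, and the part of these markers in the results below was not tested.

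Between the IgE lines and the control lines, 4 of the 9 genes that passed the filter were called: Cd69 and Nr4a2 were lower with IgE, and Klf2 and Klf4 were higher. Over all tested probes 8.99% were called in this comparison. By direction, 3.62% were called higher and 5.37% lower. The same 4 genes were those whose 4 IgE arrays and 4 control arrays did not overlap, which held for 24.1% of all tested probes, 14.2% with the IgE arrays higher and 9.84% with them lower. Egr1, Egr2, Nr4a1, Fos and Junb did not pass the test, and Egr3 was not tested because only 1 array measured it. The median change over the 9 genes was 0.43 on the log2 scale, against 0.05 over all tested probes. That median is the value of Egr2, which did not pass the test. By pair, the median ran from -0.77 for clone 18 against the IgM line to 0.86 for clone 41 against untransfected cells.

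**Figure D1:**
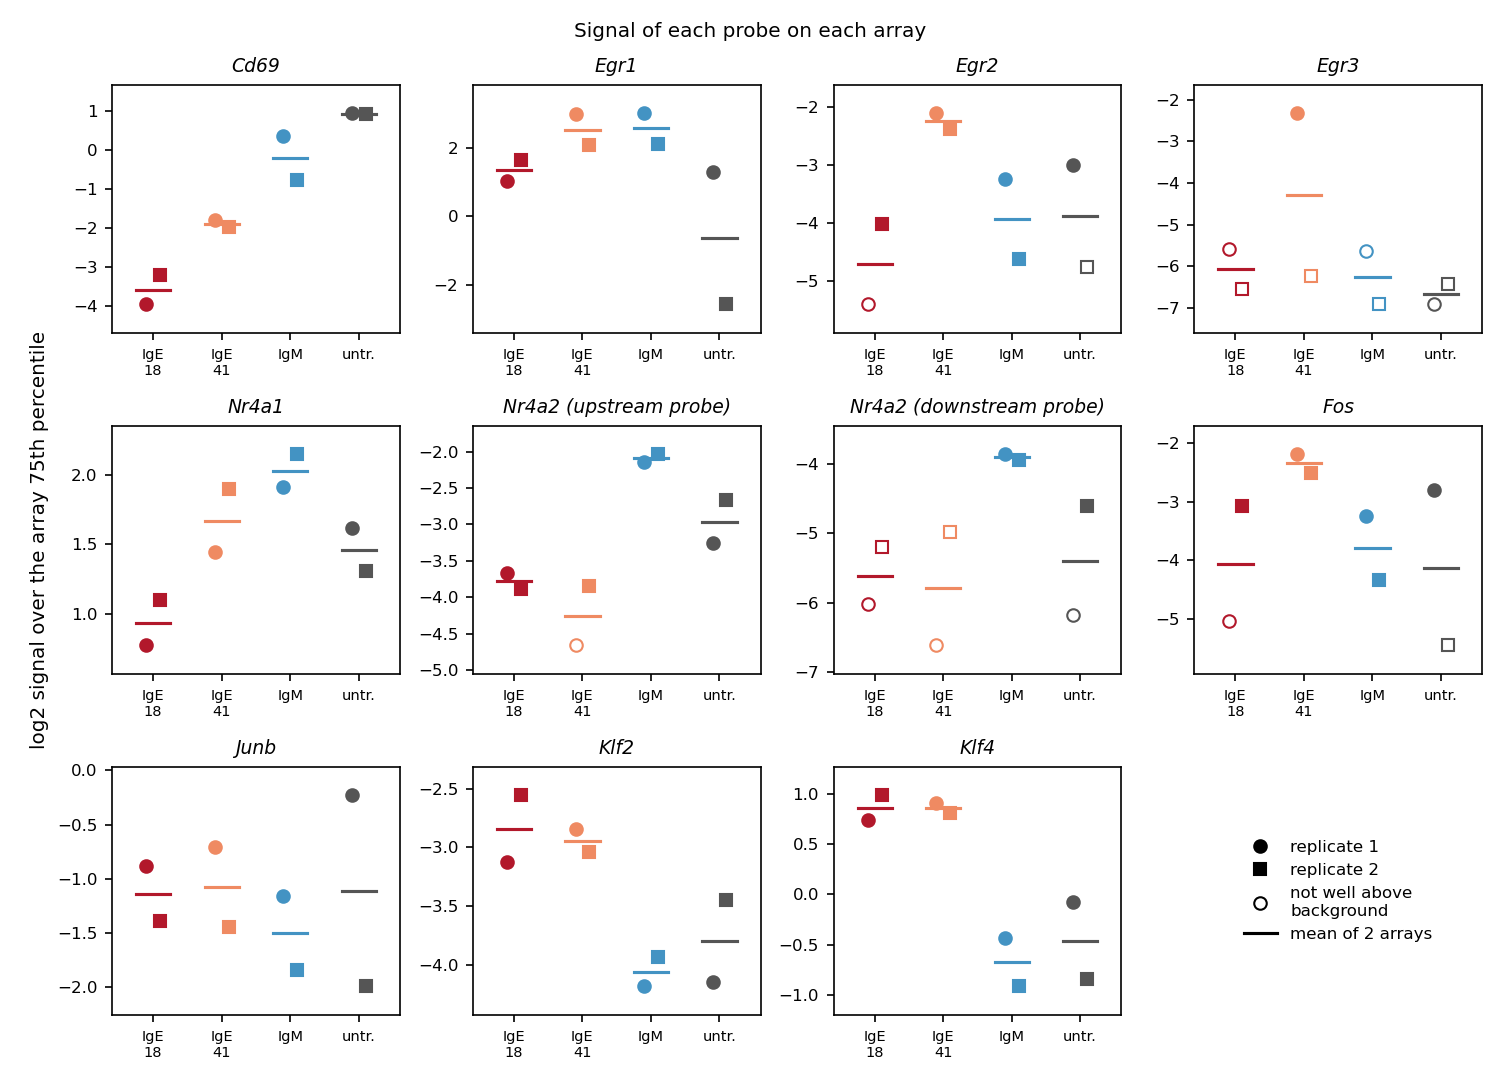
Log2 signal relative to the 75th percentile of each array (y axis, its own range in each panel) for each of the 11 probes on each of the 8 arrays, by line (x axis: IgE clones 18 and 41, IgM, and untransfected, "untr."). Circles are replicate 1, squares replicate 2, open symbols spots not well above background and bars the mean of 2 arrays. The 4 IgE arrays lie below the 4 control arrays for Cd69 and the upstream Nr4a2 probe, and above them for Klf2 and Klf4.

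Cd69 is a C-type lectin that keeps activated lymphocytes in tissue by pulling the receptor S1PR1 from the surface. Its probe lies on the minus strand at chr6:129217697-129217756 of the mouse build mm9. Its log2 signal was -3.97 and -3.22 in clone 18, -1.81 and -2.0 in clone 41, 0.34 and -0.78 in the IgM line, and 0.93 and 0.91 in untransfected cells. Every IgE array was below every control array, and the lines followed the order untransfected, IgM, clone 41, clone 18 from high to low. The mean was -2.75 ± 1.03 on IgE arrays and 0.35 ± 0.80 on control arrays (SD, n = 4 each), a log2 difference of -3.10 ± 0.28 (SE, adjusted p = 0.000793).

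By clone, Cd69 was called in 3 of the 4 comparisons with a control line. Against untransfected cells it was -4.52 ± 0.40 on the log2 scale in clone 18 (adjusted p = 0.00117) and -2.82 ± 0.40 in clone 41 (adjusted p = 0.0101), which is 22.9-fold and 7.08-fold lower. Against the IgM line it was -3.38 ± 0.40 in clone 18 (adjusted p = 0.00343), whereas the -1.69 ± 0.40 of clone 41 just missed the threshold (adjusted p = 0.0505). Neighbours in the order of lines did not pass the test: clone 41 was above clone 18 by 1.69 ± 0.40 (adjusted p = 0.361), and the IgM line was below untransfected cells by a difference of -1.14 ± 0.40 (adjusted p = 0.263). The Cd69 call of clone 41 against untransfected cells was lost without its replicate 1 (-2.92, adjusted p = 0.0535) or its replicate 2 (-2.73, adjusted p = 0.0681). Against the IgM line, the Cd69 difference of clone 41 was -2.24 and called without IgM replicate 2 (adjusted p = 0.0133), and -1.13 and not called without IgM replicate 1 (adjusted p = 0.175).

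Klf4 is a zinc finger factor that holds B cells out of the cell cycle. Its probe lies on the minus strand at chr4:55540167-55540226 of mm9. Its log2 signal was 0.74 and 0.99 in clone 18, 0.91 and 0.81 in clone 41, -0.44 and -0.92 in the IgM line, and -0.08 and -0.85 in untransfected cells. All IgE arrays were above all control arrays, and the clones did not separate from each other. The mean was 0.86 ± 0.11 on IgE arrays and -0.57 ± 0.39 on control arrays (SD, n = 4 each), a log2 difference of 1.43 ± 0.21 (SE, adjusted p = 0.00563).

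By line, the Klf4 differences were close to each other. Clone 18 was higher than untransfected cells by 1.33 ± 0.30 on the log2 scale (adjusted p = 0.0417) and clone 41 by 1.32 ± 0.30 (adjusted p = 0.051, not called). Against the IgM line both clones were higher by 1.54 ± 0.30, with an adjusted p of 0.022 for clone 18 and 0.0257 for clone 41. The interval of the difference between clone 41 and clone 18 ran from -0.71 to 0.70. These calls on single Klf4 pairs lay near the threshold: clone 18 against untransfected cells was lost without any 1 of the arrays other than untransfected replicate 1 (adjusted p of 0.0616 to 0.193), and both calls against the IgM line without any 1 of the 6 IgE and IgM arrays (0.0511 to 0.14). Without untransfected replicate 1, clone 41 was also called against untransfected cells for Klf4 (1.70, adjusted p = 0.018).

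Klf2 drives the programme of quiescence and trafficking in resting lymphocytes. Its probe lies on the plus strand at chr8:74845137-74845196 of mm9. The log2 signal of Klf2 was -3.13 and -2.55 in clone 18, -2.85 and -3.04 in clone 41, -4.19 and -3.93 in the IgM line, and -4.15 and -3.45 in untransfected cells. The IgE arrays were again all above the control arrays, with the smallest gap to untransfected replicate 2. The mean was -2.89 ± 0.25 on IgE arrays and -3.93 ± 0.34 on control arrays (SD, n = 4 each), a log2 difference of 1.04 ± 0.21 (SE, adjusted p = 0.0199), which is 2.05-fold. None of the 4 Klf2 differences between an IgE clone and a control line was called alone, at 0.86 to 1.22 with adjusted p of 0.0504 to 0.162. Against the IgM line, clone 18 was called for Klf2 with the replicate number as a block (adjusted p = 0.0392) and without untransfected replicate 1 (adjusted p = 0.0283) or 2 (adjusted p = 0.0295), and clone 41 without untransfected replicate 1 (adjusted p = 0.0404) or 2 (adjusted p = 0.0422). The pooled Klf2 call was lost without clone 18 replicate 2 (0.89, adjusted p = 0.0782), clone 41 replicate 1 (0.99, adjusted p = 0.0757), clone 41 replicate 2 (1.09, adjusted p = 0.0585) or IgM replicate 1 (0.97, adjusted p = 0.0721). Without untransfected replicate 1 the change in Klf2 fell under 2-fold (0.86, adjusted p = 0.0283).

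**Figure D2:**
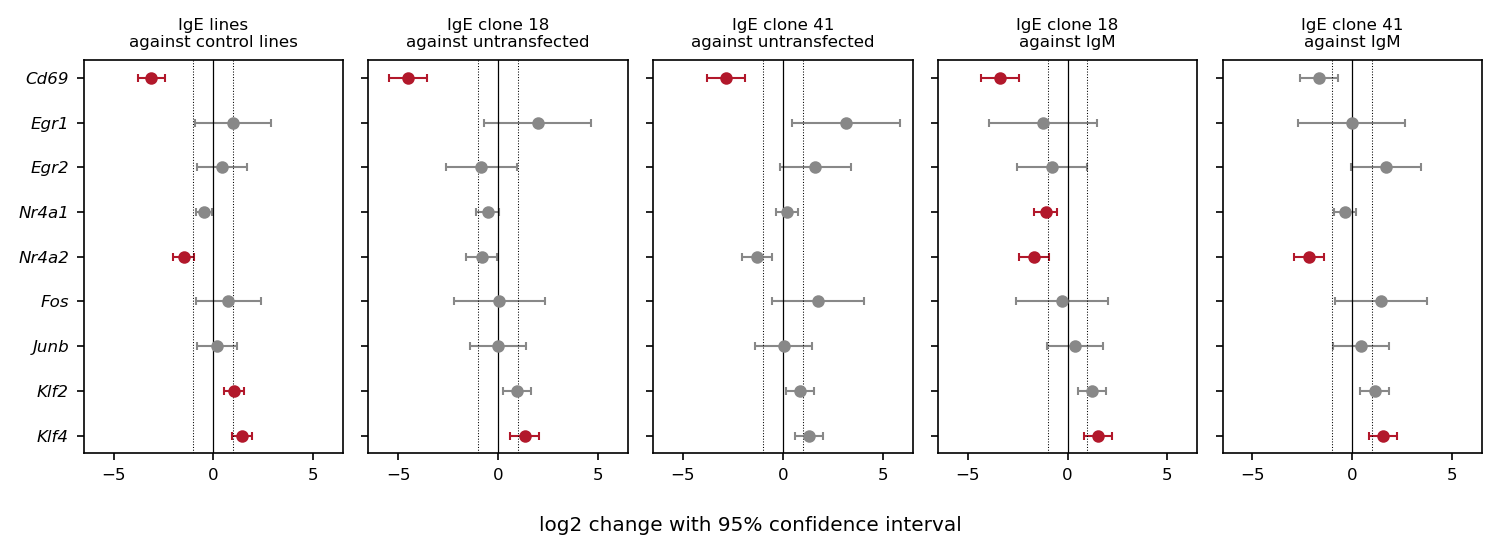
Log2 change with its 95% confidence interval (x axis) for the 9 tested genes (y axis, each by its brightest probe) in 5 comparisons, IgE lines or clones against control lines. Red points passed an adjusted p under 0.05 and 2-fold (dotted lines), and grey points did not; the intervals of Egr1 and Fos are the widest, with an SE of 0.80 for Egr1 and 0.68 for Fos in the first panel.

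The promoters of the Krüppel-like pair are shown because both genes were higher in the IgE lines and both windows hold the 9-letter GC-rich sequence bound by EGR factors, GCGGGGGCG. RefSeq windows of assembly GRCm38.p6, from 250 bases before the transcript start to 50 after it, were found for 7 of the 10 genes. Capitals mark GCGGGGGCG, read on the plus strand of the gene in Klf2 at position -199 and on its minus strand in Klf4 at -194, counted from the start.
Klf2, chr8:72318812-72319111, plus strand: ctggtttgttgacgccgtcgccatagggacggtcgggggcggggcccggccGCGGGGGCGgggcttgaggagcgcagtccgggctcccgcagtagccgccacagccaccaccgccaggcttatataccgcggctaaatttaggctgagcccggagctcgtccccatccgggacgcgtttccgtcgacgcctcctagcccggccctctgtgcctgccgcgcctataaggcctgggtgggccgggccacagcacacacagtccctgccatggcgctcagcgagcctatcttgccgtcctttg
Klf4, chr4:55532426-55532725, minus strand: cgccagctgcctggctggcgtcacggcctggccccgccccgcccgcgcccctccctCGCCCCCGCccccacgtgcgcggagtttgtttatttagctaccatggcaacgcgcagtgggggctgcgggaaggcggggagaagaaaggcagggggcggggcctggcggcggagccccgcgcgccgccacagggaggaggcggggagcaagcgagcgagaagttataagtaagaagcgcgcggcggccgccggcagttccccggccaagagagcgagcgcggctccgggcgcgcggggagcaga
GCGGGGGCG was in the windows of 3 of the 7 genes (Klf2, Klf4 and Nr4a1) on either strand, against 2.91% of 32851 promoter windows. A gene was counted if any of its windows held the letters, whereas the percentage counts single windows. Klf2 and Klf4 were called with IgE and Nr4a1 was not. A match is a description of letters and not a bound site.

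Nr4a1 and Nr4a2 are nuclear receptors without a known natural ligand whose transcripts follow antigen receptor signalling, Nr4a1 (Nur77) being the usual reporter of it. The Nr4a1 probe lies on the plus strand at chr15:101105071-101105130 of mm9. Nr4a1 read 0.77 and 1.10 in clone 18, 1.45 and 1.90 in clone 41, 1.91 and 2.15 in the IgM line, and 1.62 and 1.31 in untransfected cells. Clone 18 was below every other line, and clone 41 lay among the controls. The pooled difference was -0.44 ± 0.17 (SE, adjusted p = 0.118). Clone 18 was called against the IgM line, at -1.10 ± 0.24 (adjusted p = 0.0331), and it did not pass against untransfected cells (-0.53 ± 0.24, adjusted p = 0.217). That Nr4a1 call was lost without either array of clone 18 or of the IgM line (adjusted p of 0.0989 to 0.194). Clone 41 differed from clone 18 for Nr4a1 by 0.74 ± 0.24, which was not called (adjusted p = 0.655).

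Nr4a2 had 2 probes on the minus strand of chromosome 2. The upstream probe, at base 2050 of its transcript, is shown because the Nr4a2 call rests on it, in lower case because no part of it is singled out.
Nr4a2 upstream probe, chr2:56960699-56960758 of mm9, minus strand: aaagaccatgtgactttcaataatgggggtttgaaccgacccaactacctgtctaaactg
On this probe the log2 signal was -3.67 and -3.89 in clone 18, -4.66 and -3.84 in clone 41, -2.15 and -2.04 in the IgM line, and -3.26 and -2.67 in untransfected cells. The 4 IgE arrays were below the 4 control arrays, the IgM line was highest, and clone 41 replicate 1 was not well above background. The mean was -4.02 ± 0.44 on IgE arrays and -2.53 ± 0.56 on control arrays (SD, n = 4 each), a log2 difference of -1.49 ± 0.23 (SE, adjusted p = 0.00648).

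Both clones were called for Nr4a2 against the IgM line and neither against untransfected cells. Against the IgM line, clone 18 was lower by a difference of -1.69 ± 0.32 (adjusted p = 0.0208) and clone 41 by -2.16 ± 0.32 (adjusted p = 0.00998). Against untransfected cells, neither the -0.82 ± 0.32 of clone 18 (adjusted p = 0.166) nor the -1.29 ± 0.32 of clone 41 (adjusted p = 0.0692) was called. With normexp background correction both Nr4a2 differences from the IgM line fell under 2-fold, at -0.69 for clone 18 and -0.85 for clone 41. The Nr4a2 call of clone 18 against the IgM line was lost without either array of either line (adjusted p of 0.0691 to 0.133), and clone 41 was called against untransfected cells without untransfected replicate 1 (-1.59, adjusted p = 0.0464). The IgM line was above untransfected cells by 0.87 ± 0.32 on the upstream Nr4a2 probe, which was not called (adjusted p = 0.283).

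The downstream Nr4a2 probe, at chr2:56959637-56959696 of mm9 and base 3112 of the transcript, was dimmer. Its log2 signal was -6.01 and -5.20 in clone 18 and -6.61 and -4.97 in clone 41, none of them well above background, against -3.86 and -3.94 in the IgM line and -6.18 and -4.61 in untransfected cells. Of the control arrays, untransfected replicate 1 was also not well above background. For bounds on this probe, each IgE array was set to no less than the lowest signal measured on it. The IgM line was then at least 1.79-fold higher than clone 18 and at least 1.68-fold higher than clone 41. The control lines were 1.03-fold higher than the IgE lines. That last value is not a lower bound, because untransfected replicate 1 entered at a signal not well above background. The fitted Nr4a2 difference of this probe was -1.05 ± 0.48 (SE, adjusted p = 0.175), a value set against IgE signals that were not well above background.

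The EGR factors are zinc finger activators that are among the first genes transcribed after receptor ligation, and Egr2 and Egr3 also restrain lymphocyte activation later on. Egr1, whose probe lies on chromosome 18, was well above background on all 8 arrays. On the log2 scale it read 1.05 and 1.63 in clone 18, 2.99 and 2.07 in clone 41, 3.01 and 2.12 in the IgM line, and 1.28 and -2.57 in untransfected cells. Untransfected replicate 2 was far below the other 7 arrays, and apart from it the groups overlapped. The pooled Egr1 difference was 0.97 ± 0.80 (SE, adjusted p = 0.441), with an interval from -0.93 to 2.87.

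The size of the Egr1 difference depended on which untransfected array was kept. Left with replicate 2 as the only untransfected array, the IgE lines were higher by 1.93 (adjusted p = 0.0167), clone 18 by 3.90 (adjusted p = 0.0118), clone 41 by 5.09 (adjusted p = 0.00692) and the IgM line by 5.13 (adjusted p = 0.0117). Left with replicate 1, the Egr1 difference from the controls was 0.01 for the IgE lines (adjusted p = 0.987), and the difference from untransfected cells was 0.06 for clone 18 (adjusted p = 0.957), 1.25 for clone 41 (adjusted p = 0.229) and 1.28 for the IgM line (adjusted p = 0.262), none of them called.

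Egr2 has its probe on the plus strand at chr10:67004798-67004857 of mm9. The log2 signal of Egr2 was -5.40 and -4.01 in clone 18, -2.10 and -2.38 in clone 41, -3.24 and -4.62 in the IgM line, and -2.99 and -4.76 in untransfected cells. Both arrays of clone 41 were above the other 6, and clone 18 replicate 1 and untransfected replicate 2 were not well above background. The pooled Egr2 difference was 0.43 ± 0.52 (SE, adjusted p = 0.609), and clone 41 was above clone 18 by 2.47 ± 0.74, which was not called (adjusted p = 0.577). Egr3 was well above background on clone 41 replicate 1 alone, where its log2 signal was -2.32, against -6.23 on the other clone 41 array. The other 6 arrays read -6.91 to -5.57, and a difference resting on 1 array was not tested.

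Fos pairs with Jun proteins to form the activator AP-1, and Junb is a Jun member that can moderate it. The Fos probe lies on the plus strand at chr12:86817900-86817959 of mm9 and was spotted 10 times on each array. Its mean log2 signal was -5.04 and -3.08 in clone 18, -2.19 and -2.50 in clone 41, -3.24 and -4.34 in the IgM line, and -2.80 and -5.45 in untransfected cells. Clone 41 was above the other lines on both arrays, and the remaining 3 lines overlapped. The SD over the Fos spots of 1 array was 0.08 to 0.60. On clone 18 replicate 1, 3 of 10 Fos spots were well above background, and on untransfected replicate 2 none of 8 kept spots was. The pooled Fos difference was 0.76 ± 0.68 (SE, adjusted p = 0.484).

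The Junb probe lies on the minus strand at chr8:87501881-87501940 of mm9. The arrays read -0.88 and -1.39 in clone 18, -0.71 and -1.44 in clone 41, -1.16 and -1.84 in the IgM line, and -0.23 and -1.99 in untransfected cells. Replicate 1 was above replicate 2 in all 4 lines, and no line stood apart. The pooled Junb difference was 0.20 ± 0.42 (SE, adjusted p = 0.778), with an interval from -0.79 to 1.19, and no pair of lines was called.

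Promoter windows of Fos and Egr2 are shown as those of signal-responsive genes whose arrays disagreed within lines. In Fos, capitals mark the letters TGACG, the core that CREB and ATF factors bind, and TATAAA, found at position -33. In Egr2, capitals mark a CArG box, the site read by SRF; 4 of the 5 windows listed for the gene hold a CArG box, and 1 of them is shown.
Fos, chr12:85473640-85473939, plus strand: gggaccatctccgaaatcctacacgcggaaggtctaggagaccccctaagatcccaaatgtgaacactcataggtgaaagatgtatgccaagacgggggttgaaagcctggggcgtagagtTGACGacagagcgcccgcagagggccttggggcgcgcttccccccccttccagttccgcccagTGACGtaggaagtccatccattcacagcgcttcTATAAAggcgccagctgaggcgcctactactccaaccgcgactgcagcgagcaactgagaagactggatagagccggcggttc
Egr2, chr10:67537619-67537918, plus strand: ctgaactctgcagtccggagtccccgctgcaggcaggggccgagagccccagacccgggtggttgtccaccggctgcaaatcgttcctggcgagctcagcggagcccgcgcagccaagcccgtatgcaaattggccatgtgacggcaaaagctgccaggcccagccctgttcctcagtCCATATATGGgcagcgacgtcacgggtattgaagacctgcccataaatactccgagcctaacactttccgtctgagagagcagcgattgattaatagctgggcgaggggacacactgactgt
On either strand, TGACG was in the windows of 7 of 7 genes with an entry, against 20.8% of all windows. Its palindromic long form TGACGTCA, which contains it, was in 0 of 7, against 1.79% of all windows. TATAAA was in 3 of 7 (13.6% of all windows) and the CArG box in 1 of 7 (1.63%). A gene was counted if any of its windows held the letters, and Egr2 has 5 windows, whereas the percentages count single windows. No match means only that these letters are not in these 300 bases.

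The spread within a line was itself uneven over these genes. Between the 2 untransfected arrays (replicate 2 minus replicate 1), Egr1 differed by -3.85 and Junb by -1.76, with a larger difference in 0.175% of all probes for Egr1 and 3.21% for Junb. Fos and Egr2 were also lower on untransfected replicate 2, where neither was well above background; with that array set to no less than the lowest signal measured on it, the difference was at least 2.10 for Fos and at least 1.77 for Egr2. Cd69 differed by only -0.02 on the same pair, and 97.2% of probes differed more. In clone 18, replicate 1 was not well above background for Fos or Egr2, and replicate 2 was higher by at least 1.72 for Fos and at least 0.80 for Egr2. In the IgM line, where all these signals were well above background, Cd69 differed by -1.12, Egr2 by -1.38 and Fos by -1.10, all lower on replicate 2. Past 2-fold were 2 of 9 genes in clone 18 (2.67% of all probes), 0 of 9 in clone 41 (4.53%), 3 of 9 in the IgM line (5.73%) and 4 of 9 in untransfected cells (13.3%). Counting dim arrays at their bound left 1 of 9 in clone 18, and 3 in the IgM line and 4 in untransfected cells. Egr3, outside the 9, was lower on clone 41 replicate 2, where it was not well above background, by at least 2.36.

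**Figure D3:**
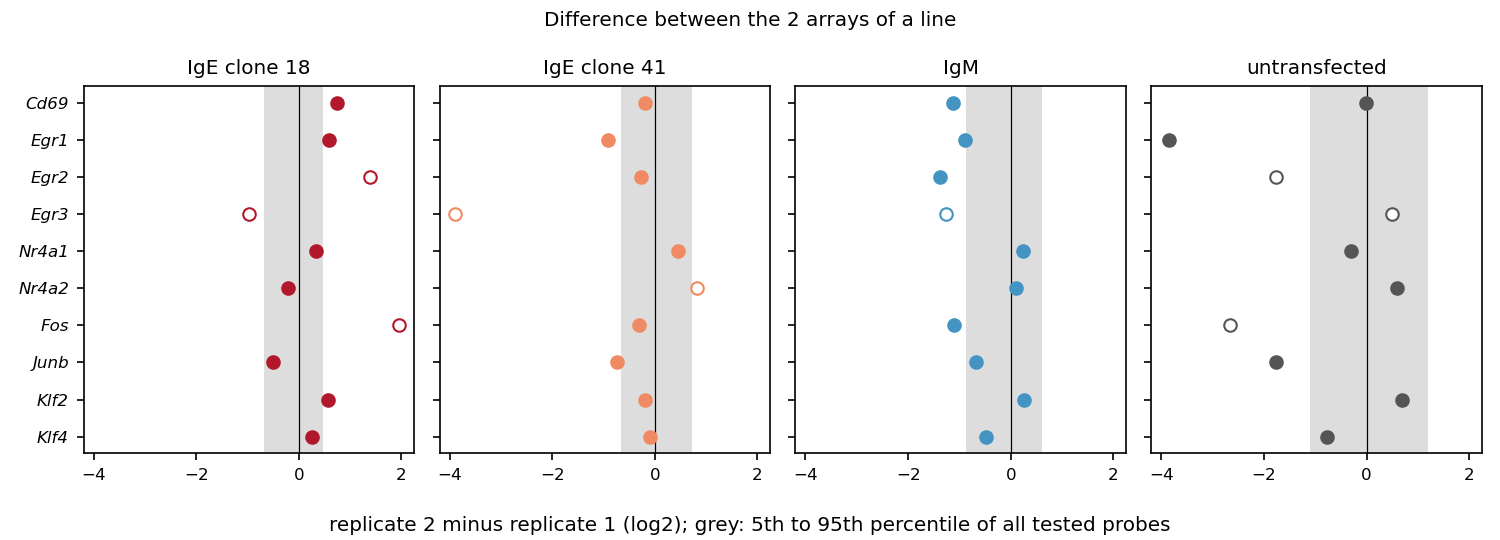
Difference between the 2 arrays of a line, replicate 2 minus replicate 1, in log2 units (x axis) for each gene (y axis), by line. Grey bands span the 5th to the 95th percentile of all tested probes, and open circles are genes with at least 1 of the 2 arrays not well above background, plotted at the measured signal; in untransfected cells Egr1, Fos, Egr2 and Junb lie left of the band, which runs from -1.10 to 1.19.

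Pair by pair, the genes called were few. Clone 18 against untransfected cells gave 2 of 9, Cd69 and Klf4 (7.44% of all probes), and clone 41 against untransfected cells gave 1 of 9, Cd69 (5.51%). Clone 18 against the IgM line gave 4 of 9, Cd69, Nr4a1, Nr4a2 and Klf4 (8.84%), and clone 41 against the IgM line gave 2 of 9, Nr4a2 and Klf4 (7.23%). In limma's test the IgM line against untransfected cells gave 0 of 9, against 1.81% of all probes called, and 4 of 9 had an unadjusted p under 0.05, against 14.6% of all probes. Clone 41 against clone 18 gave 0 of 9 in limma's test, against 0.261% of all probes called, and 3 of 9 had an unadjusted p under 0.05, against 5.57% of all probes. Left with untransfected replicate 2 alone, the IgM line against untransfected cells gave 1, Egr1.

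The genes around this network were read from a list of 53, of which 39 passed the filter, each by its brightest probe. Between IgE and control lines 2 were higher and 3 lower, which is 12.8% of the 39, against 8.96% of 19973 genes (3.41% higher and 5.55% lower). Their median change was -0.12 on the log2 scale, against 0.04 over all genes. None of the 6 tested AP-1 and ATF partners was called (Fosb, Fosl2, Jun, Jund, Maff and Batf), and none of the 7 other immediate early genes, among them Myc at 0.92 ± 0.36 (adjusted p = 0.129).

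Nab2, a co-repressor that binds EGR proteins and is itself induced by them, had the largest rise of the 39. Its log2 signal was 1.12 and 1.11 in clone 18, 1.61 and 0.59 in clone 41, -0.90 and -0.74 in the IgM line, and -1.26 and -1.31 in untransfected cells. All 4 IgE arrays were above all 4 control arrays. The mean of Nab2 was 1.11 ± 0.42 on IgE arrays and -1.05 ± 0.28 on control arrays (SD, n = 4 each), a log2 difference of 2.16 ± 0.23 (SE, adjusted p = 0.00142), and it was called for each clone against each control line. Its relative Nab1 did not pass (-0.29 ± 0.23, adjusted p = 0.428), and Egr4 and Nr4a3 were not well above background on any array.

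Among the 11 tested genes of MAP kinase feedback and RNA decay, 1 was called, or 9.09%, against 8.96% of all genes. Dusp5, a nuclear phosphatase of ERK, read -2.70 and -2.79 in clone 18, -2.07 and -3.64 in clone 41, -3.73 and -3.79 in the IgM line, and -4.10 and -5.04 in untransfected cells. Its IgE arrays were above the control arrays by a gap of less than the spread within clone 41. Untransfected replicate 2 was not well above background for Dusp5, so its difference rests in part on an unmeasured level. No single pair of an IgE clone and a control line was called for Dusp5 (adjusted p of 0.0836 to 0.357). The Dusp5 difference was 1.37 ± 0.37 (SE, adjusted p = 0.0479) and was lost without any 1 of clone 18 replicate 1, clone 18 replicate 2, clone 41 replicate 1, either IgM array or untransfected replicate 2 (adjusted p of 0.0786 to 0.143). The Dusp5 call was also lost when the line entered as a random effect (adjusted p = 0.0561) and with no filter on dim probes (adjusted p = 0.135), and the change was under 2-fold with normexp (0.76) and in the authors' deposited table (0.92). Spred1, an inhibitor of the Ras pathway, was lower by a difference of -0.78 ± 0.19 (adjusted p = 0.0339), and the antiproliferative gene Btg2 was higher by 0.93 ± 0.24 (adjusted p = 0.0427). Both stayed under 2-fold and were therefore not called.

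Of the 6 upstream factors, Elk4, an SRF partner, was the 1 called, against 8.96% of all genes. The Elk1 probe was saturated on all 8 arrays, so the lack of a call for Elk1 says little. The log2 signal of Elk4 was 0.63 and 0.62 in clone 18, 0.58 and 0.88 in clone 41, 2.25 and 2.71 in the IgM line, and 0.70 and 2.15 in untransfected cells. Untransfected replicate 1 lay among the IgE arrays, so the groups overlapped. By pair, Elk4 was called only for clone 18 against the IgM line (adjusted p = 0.0478). Clone 41 was called against neither the IgM line (adjusted p = 0.0642) nor untransfected cells (adjusted p = 0.414). The Elk4 difference was -1.27 ± 0.32 (SE, adjusted p = 0.0382), and the call was lost on leaving out any single array other than untransfected replicate 1. The adjusted p was then 0.0761 to 0.124, or, without untransfected replicate 2, the change was under 2-fold (-0.91, adjusted p = 0.0197). The Elk4 call was also lost when the line entered as a random effect (adjusted p = 0.0662), with no filter on dim probes (adjusted p = 0.114) and in the authors' deposited table (adjusted p = 0.0518).

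Among the 6 tested genes related to Klf2 and quiescence, 2 were called lower with IgE, against 5.55% of all genes. S1pr1, the receptor for sphingosine 1-phosphate that guides exit from lymphoid tissue and a target of Klf2 in T cells, read -0.36 and -0.76 in clone 18, -0.45 and 0.41 in clone 41, 2.02 and 2.15 in the IgM line, and 0.90 and 2.46 in untransfected cells. Its groups did not overlap. The S1pr1 difference was -2.17 ± 0.37 (SE, adjusted p = 0.00965), and the call was lost only without clone 18 replicate 2 among the single arrays left out (-2.07, adjusted p = 0.0544). By pair, S1pr1 was called for clone 18 against both control lines. For clone 41 it was called against neither untransfected cells (adjusted p = 0.119) nor the IgM line (adjusted p = 0.0568). S1pr1 and Klf2 moved in opposite directions between these groups.

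Foxo1, a forkhead factor of quiescent lymphocytes that raises Klf2 in T cells, read 3.64 and 3.79 in clone 18, 4.11 and 4.45 in clone 41, 5.56 and 5.31 in the IgM line, and 4.42 and 5.25 in untransfected cells. Clone 41 replicate 2 and untransfected replicate 1 overlapped slightly. The Foxo1 difference was -1.14 ± 0.21 (SE, adjusted p = 0.0135), and it was not called without clone 18 replicate 1 (adjusted p = 0.0623), clone 18 replicate 2 (0.0565), clone 41 replicate 1 (0.0567) or IgM replicate 1 (0.0523). Without untransfected replicate 2 the Foxo1 change was -0.93, under 2-fold. By pair, Foxo1 was called only for clone 18 against the IgM line (adjusted p = 0.0149). For clone 41 the adjusted p was 0.327 against untransfected cells and 0.0641 against the IgM line. Itgb7, an integrin subunit, was lower by a difference of -0.57 ± 0.13 (adjusted p = 0.0271), under 2-fold. Of the activation genes for surface and secreted proteins, only Cd83 passed the filter, at 0.28 ± 0.24 (adjusted p = 0.448).

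**Figure D4:**
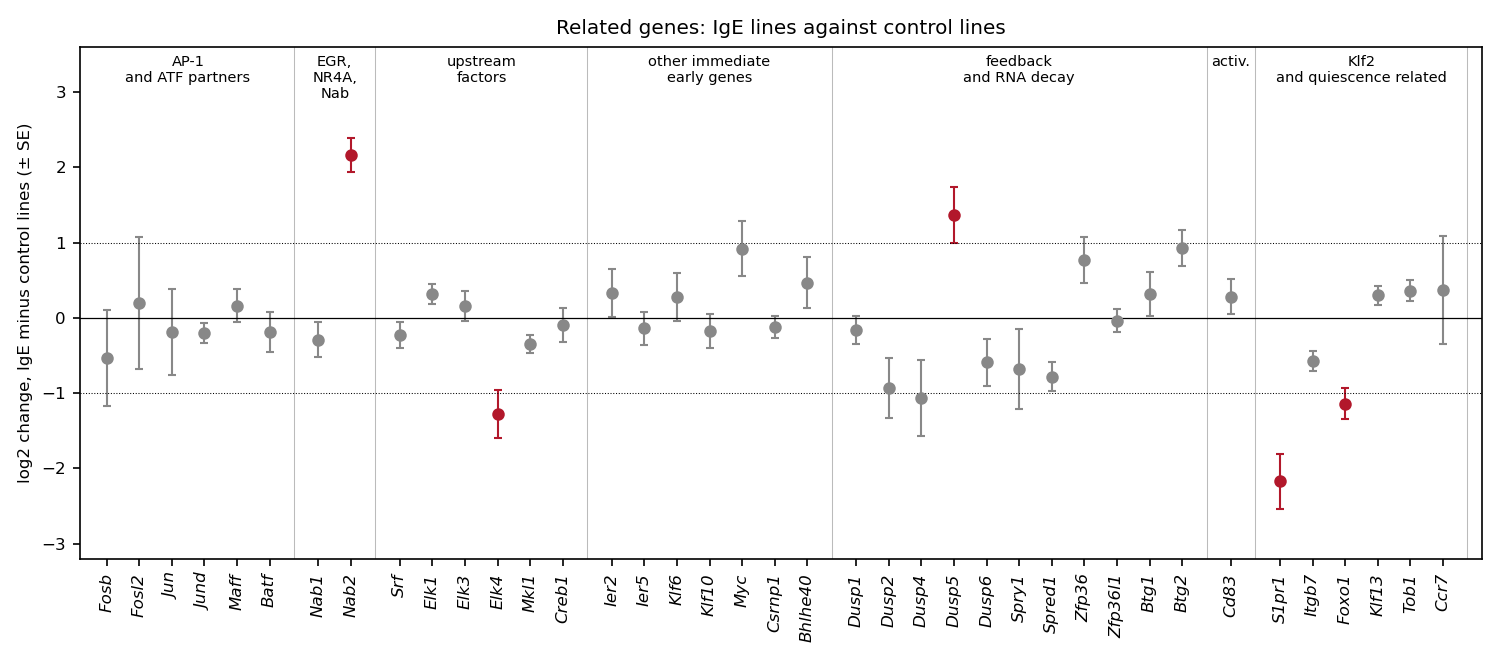
Log2 change between IgE and control lines with its SE (y axis) for the 39 tested related genes (x axis), in the groups of the list. Red points were called: Nab2 at 2.16 and Dusp5 at 1.37 above 0, Elk4 at -1.27, S1pr1 at -2.17 and Foxo1 at -1.14 below it.

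The unevenness of the untransfected pair also appeared in the related genes. Past 2-fold between its 2 arrays were 14 of 39, or 35.9%, against 13.3% of all probes. Of the 14, 10 were higher and 4 lower on replicate 2, and 12 were well above background on both arrays. Among the AP-1 genes, singled out after their values were seen, Jun was higher on replicate 2 by 2.48 and Fosb lower, at -2.41, while Fosl2, not well above background on replicate 1, was higher on replicate 2 by at least 2.14. In clone 41, 8 of 39 differed past 2-fold (4.53% of all probes), in the IgM line 4 (5.73%) and in clone 18 none (2.67%).

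The genes whose pattern over the 8 arrays was closest to each called gene were found by the root mean square difference of their log2 signals after centring each gene on its own mean. For Cd69, among 12630 genes, they were Il2rg at 0.41, Cd300lf at 0.45 and Slc39a4 at 0.51. For Klf4 they were Mettl13 (now Eef1aknmt) at 0.11, Cops7a at 0.14 and Mif4gd at 0.16, and for Klf2 they were Klhl15 at 0.16, Chchd6 at 0.17 and Ubn2 at 0.18. For the upstream Nr4a2 probe, among 14264 genes, they were BC049715, Gm5126 and Frmd4a, each at 0.21. Gm5126 was not well above background on any of the 4 IgE arrays, with a mean of -6.14, so its distance rests on unmeasured levels. The closest gene to Cd69 was farther from it than the closest to any of the other 3. The distance is not scaled to a gene's range, so it can grow with the size of the change. Over the 8 arrays that range was 4.90 on the log2 scale for Cd69, 2.62 for Nr4a2, 1.91 for Klf4 and 1.63 for Klf2.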

How the data were processed

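Every sample filled 1 Agilent 1-colour mouse array. Per the file headers, Feature Extraction 10.7.3.1 read the spots, mm9 gave the probe positions, and the deposited processed intensity is background-subtracted and detrended within an array but not normalized between arrays. A table of log2 values of the same arrays was also deposited by the authors; its normalization is not given in the sources used here, and it served as an alternative.

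Here the log2 intensity of each array was reduced by its 75th percentile. Control spots and outlier spots were left out, and repeated spots were averaged. All tests are from limma 3.58.1 in R 4.3.3, with 1 mean per line over 8 arrays (4 residual and 2.74 prior degrees of freedom), two-sided, with Benjamini-Hochberg adjustment over 29140 probes. Of these, 34 had a missing value. The script was tested on simulated data. All arrays lay on 1 slide with 1 scan, and the 2 arrays of a line shared a slide column that held no other line: an effect of the column cannot be told apart from one of the line. No 2 arrays held identical values. The number of arrays limits the precision.

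Every probe of the 10 genes is named. From each group of the wider list every called gene was to be named, up to 4, and for each gene called between IgE and control lines the 3 genes most alike. The genes, lists and rules were chosen with earlier results of these data known. Samples were grouped by their titles and characteristics. The alternatives were other scalings, background corrections, filters, moderation, spot and probe choices, thresholds, the deposited log2 table, a replicate block, a random block and leaving out each array. The sequence of Egr1 and 1 of the listed B cell markers are not reported here.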

Additional observations from a re-analysis of the deposited data

How the results depend on the processing

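Cd69 and Klf4 were called between IgE and control lines in all 20 alternatives, with log2 differences of -3.38 to -2.28 for Cd69 and 1.24 to 1.62 for Klf4. Nr4a2 was called in 17 of 19, and fell under 2-fold with normexp background correction (-0.50) and in the authors' deposited log2 table (-0.79). Klf2 lost its call in 8 of 20, at 0.62 with normexp and 0.67 in the authors' table among them. The cause was not tested.

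The number of genes called between IgE and control lines was 4. It was 3 with no filter or the filter on all 8 arrays, and 2 with normexp or the authors' table. The filter on all 8 arrays left Nr4a2 untested. For clone 18 against untransfected cells it was 2, and 1 with no filter or the authors' table. For clone 41 against untransfected cells it was 1, and 2 with median scaling, normexp, the filter on all 8 arrays, 1 probe per gene or trended robust priors. For clone 18 against IgM it was 4, and 1 with no filter. In that comparison normexp lost Nr4a2 and the authors' table lost Klf4. Klf2 was added with median scaling, the filter on all 8 arrays, 1 probe per gene or the replicate block. For clone 41 against IgM it was 2, and 1 with no filter or the authors' table. Here normexp lost Nr4a2. Cd69 was added with normexp, the filter on all 8 arrays, 1 probe per gene or trended robust priors. Leaving out 1 array at a time gave 3 to 4, 1 to 3, 0 to 4, 1 to 5 and 1 to 3 for these comparisons in turn, 0 to 1 for IgM against untransfected cells, and 0 to 0 for clone 41 against clone 18. The related genes called numbered 5, 3 in the authors' table, 8 by adjusted p alone, 3 with the line as a random block, and 1 to 7 with 1 array left out.

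With the replicate number as a block, 4 genes were called between IgE and control lines. Correlations of same-numbered arrays ran from -0.07 to 0.35 between lines, highest between clone 41 and untransfected cells. The main fit did not pair arrays by number, and whether lines share an effect of the replicate number was not tested. Over all probes 2619 were called, against 1343 with normexp, 1527 in the authors' table, 1515 with the filter on all 8 arrays, 4963 by adjusted p alone and 4452 without IgM replicate 2, where 21.9% of the called probes were higher, against 40.3%. Of 1185 recomputed differences of single genes, 1075 kept their side of the threshold and sign, 49 lost a call, 24 gained one, 37 changed sign while uncalled and 0 reversed a call. Signals near background limit Egr2, Egr3, Fos and the downstream Nr4a2 probe. They also limit the calls of Klf2, of the upstream Nr4a2 probe and, among the related genes, of Dusp5. Over the 8 arrays Klf2 read -4.19 to -2.55 and the upstream Nr4a2 probe -4.66 to -2.04. The lowest signal measured on an array was -4.89 to -4.62.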
